A study of Mus musculus with 6 samples.

Results

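The genes described here were p53 (Trp53), 4 genes known as its regulators or targets, Mdm2, Mdm4, Ccng1 and Zmat3, and 5 inhibitors of cyclin-dependent kinases (CDKs), Cdkn1a, Cdkn1b, Cdkn2a, Cdkn2b and Cdkn2c. They were taken by symbol from the gene table, in which all 10 were found among 50763 genes. Messenger RNA was sequenced from mouse embryonic fibroblasts, connective tissue cells grown out of dissociated embryos, here taken at E13.5 of gestation and after a brief culture. The 3 K68R libraries came from a CRISPR knock-in in which lysine 68 of SOD2, the mitochondrial manganese superoxide dismutase, is replaced by arginine, a residue that cannot be acetylated. The 3 WT libraries came from wild-type embryos, and both genotypes had a C57BL/6 background. Passage number, embryo sex and litter were not given in the sources used here. The labels call the libraries biological replicates without tying each to its own embryo or culture, so p-values measure only the spread between these libraries, which may be technical. The names of the WT libraries carry a letter r that those of the K68R libraries lack, and the labels do not explain it. An effect of genotype cannot be told apart from any difference in handling between the K68R and WT libraries.

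As background, p53 is a transcription factor that is held low by the ubiquitin ligase MDM2 and, after DNA damage or oncogenic stress, turns on genes of cell cycle arrest, repair and cell death. Mdm2 is itself a p53 target, which closes a negative feedback loop. CDK inhibitors fall into a CIP/KIP family, which binds many cyclin-CDK complexes, and an INK4 family, which binds CDK4 and CDK6 and so keeps the RB protein active. In cultured mouse embryonic fibroblasts the products of Cdkn2a and the p21 protein made from Cdkn1a are known to build up as cells stop dividing. Much of the control of p53 and of p27 acts on the protein, which was not measured here.

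All 10 genes passed the filter on low counts and all 10 differed between K68R and WT, 6 higher and 4 lower in K68R (edgeR quasi-likelihood test, Benjamini-Hochberg adjusted p under 0.05 over the 16730 genes tested). Over all genes tested 81.4% were called, 40.8% higher and 40.5% lower, so a call alone did not set these genes apart. The 3 INK4 genes had the largest changes in each direction, with Cdkn2a and Cdkn2b higher and Cdkn2c lower. Cdkn1a, Mdm2, Ccng1 and Zmat3 were higher by 1.3-fold to 1.63-fold, while Trp53 itself was 1.06-fold lower. Of these, Mdm2 and Zmat3 reversed with offsets for exon length alone, described with each gene. The median log2 fold change of K68R over WT was 0.39 over the 10 genes, against -0.00709 over all genes tested. Against a bound of 1.5-fold in place of no change, 3 of the 10 genes were higher and 1 was lower, where 41.0% of all genes tested passed, 26.1% higher and 14.9% lower. Levels are given in CPM, counts scaled by TMM-normalized library size, as mean ± SD of 3 libraries.

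**Figure D1:**
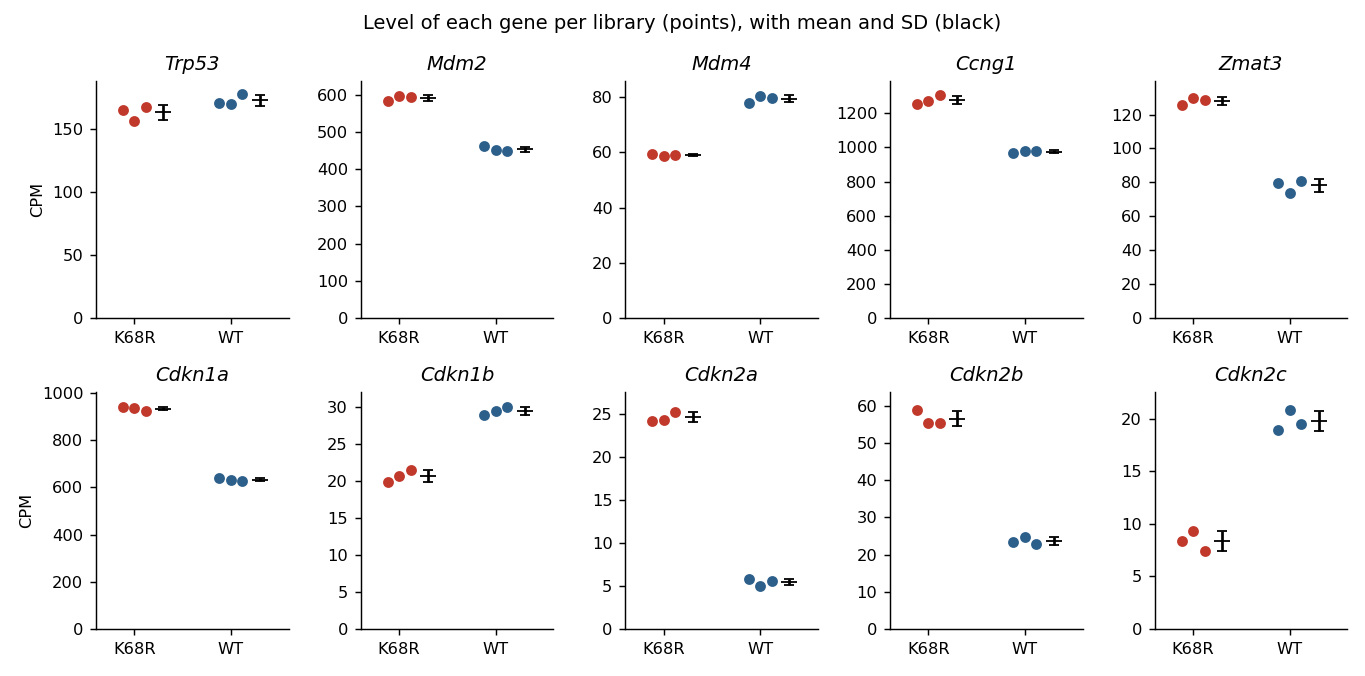
Level of each of the 10 genes in CPM (vertical axes, each starting at 0) in the 3 K68R libraries (red) and the 3 WT libraries (blue), with the mean and SD in black. The K68R and WT points of every gene are apart, from Trp53, at 163 ± 5.83 against 173 ± 4.48 CPM, to Cdkn2a, at 24.6 ± 0.577 against 5.44 ± 0.376 CPM.

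The libraries held 26200088, 31738219 and 31330555 counted read pairs in K68R and 40691447, 30856781 and 32994101 in WT, and 3 counts corresponded to 0.0728 to 0.116 CPM. Sod2, the targeted gene, was at 48.9, 45.6 and 47.2 CPM in K68R and at 71.8, 69.0 and 69.2 CPM in WT, a log2 fold change of -0.57 with an SE of 0.0363 (edgeR, adjusted p = 2.96e-23). These counts do not tell the knock-in codon from the WT codon. Fold changes across the table varied with exon length and GC content, which together accounted for 39.5% of their variance, so each comparison was also fitted with offsets for both. With these offsets 75.8% of 15588 genes were called, 33.6% higher and 42.3% lower, and 6 of the 10 genes were higher and 2 lower. All 10 fibroblast markers were detected in every library, and they split, with 4 higher, 5 lower and 1 not called, and 4 higher and 6 lower with the offsets. Col1a1 was 14.8-fold higher, at 2445 ± 13.7 CPM in K68R against 165 ± 1.31 CPM in WT, and Pdgfra was 5.56-fold lower, at 65.3 ± 1.44 CPM in K68R against 363 ± 3.50 CPM in WT. With the offsets Col1a1 was 2.65-fold higher and Pdgfra 7.81-fold lower. Markers of other cell types moved with the genotype. All 7 tested skeletal muscle markers were higher, with summed levels of 197 to 199 CPM in K68R against 55.5 to 56.9 CPM in WT. All 5 adipocyte markers were lower, with 52.3 to 57.5 CPM in K68R against 203 to 213 CPM in WT, and Plin1 was at 0 in the K68R libraries. All 6 epithelial markers were lower, with 18.4 to 20.5 CPM in K68R against 46.0 to 47.6 CPM in WT. Of 5 endothelial markers Kdr and Emcn were higher and 3, among them Pecam1 and Cdh5, were not called. Most of their summed level, 96.1 to 97.9 CPM in K68R against 24.7 to 27.2 CPM in WT, was Kdr, at 90.7 ± 1.20 CPM in K68R against 20.5 ± 1.24 CPM in WT. Of 7 macrophage markers 1 was higher and 4 lower, with 123 to 131 CPM in K68R against 146 to 150 CPM in WT, but with the offsets 3 were higher and 3 lower. Of 4 neural and Schwann markers 3 were higher and 1 lower, but with the offsets 1 was higher and 2 lower. Pdgfra, Plin1, Kdr and Emcn are named after their values were seen. The embryonic globins Hbb-y and Hba-x were at 0 in every library. The part of other cell types in the differences described here was not tested, and in bulk RNA fewer cells of a type and less RNA per cell cannot be told apart.

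Trp53 (chromosome 11, 69471174 to 69482699, plus strand, build mm39) was at 165, 157 and 168 CPM in the K68R libraries and at 171, 169.8 and 178 CPM in the WT libraries. The highest K68R library was just below the lowest WT library. The log2 fold change was -0.08 with an SE of 0.0252 (edgeR, adjusted p = 0.0022), the smallest of the 10. The call rested on K68R replicate 2, without which the log2 fold change was -0.05 and the adjusted p 0.0705 (edgeR). With the length and GC offsets it was -0.05 as well (edgeR, adjusted p = 0.0569). No exonic base of Trp53 was shared with another gene of the annotation.

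Mdm2 and Mdm4, the pair that restrains p53, moved in opposite directions, except with offsets for length alone, where both were lower. Mdm2 (chromosome 10, 117524780 to 117546663, minus strand, build mm39), the ubiquitin ligase, was at 583, 597 and 594 CPM in K68R and at 462, 450.3 and 449.9 CPM in WT. All 3 K68R libraries were above all 3 WT libraries, with a log2 fold change of 0.38 and an SE of 0.019 (edgeR, adjusted p = 5.73e-29). Mdm4 (chromosome 1, 132913843 to 132958325, minus strand, build mm39) encodes a relative that binds and masks the p53 activation domain and pairs with MDM2. It was at 59.4, 58.7 and 59.0 CPM in K68R and at 78.0, 80.4 and 79.8 CPM in WT. All K68R values were below all WT values, with a log2 fold change of -0.43 and an SE of 0.0333 (edgeR, adjusted p = 5.72e-19). The directions held with the length and GC offsets, at 0.23 for Mdm2 and -0.39 for Mdm4. Offsets for length alone moved the median log2 fold change of all genes tested to -0.21. Under them Mdm2 reversed, to -0.35, and Mdm4 was at -1.16, both below that median. The exonic lengths of the pair are alike, 7415 bases for Mdm2 and 7436 for Mdm4.

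The ratio of the pair within a library does not depend on library size. Per exonic kilobase, Mdm2 was 9.85, 10.2 and 10.1 times the level of Mdm4 in the K68R libraries and 5.93, 5.62 and 5.66 times in the WT libraries. The mean ratios were 10.05 ± 0.179 in K68R and 5.74 ± 0.172 in WT (SD, n = 3), a 1.75-fold difference with no overlap (two-sided exact permutation test, p = 0.1, the smallest that 3 against 3 libraries allow). On the log2 scale the difference was 0.81, and 0.62 with the offsets.

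Ccng1 and Zmat3, both known as p53 targets, were higher in K68R, Zmat3 except with offsets for length alone. Ccng1 (chromosome 11, 40639379 to 40646044, minus strand, build mm39) encodes cyclin G1, which brings the phosphatase PP2A to MDM2. It was at 1253, 1273 and 1305 CPM in K68R and at 966, 979.8 and 980.2 CPM in WT. The lowest K68R library stood well above the highest WT library, with a log2 fold change of 0.39 and an SE of 0.0174 (edgeR, adjusted p = 1.59e-31). With the length and GC offsets the log2 fold change was 0.77. Zmat3 (chromosome 3, 32388941 to 32419814, minus strand, build mm39) encodes a zinc finger protein that binds RNA and acts on splicing. It was at 125, 130 and 128 CPM in K68R and at 79.6, 74.0 and 81.0 CPM in WT. The groups did not overlap, the log2 fold change was 0.71 with an SE of 0.0301 (edgeR, adjusted p = 1.2e-32), and Zmat3 passed the 1.5-fold bound (edgeR, adjusted p = 3.09e-05). It was 0.38 with the length and GC offsets and -0.08 with offsets for length alone, which is above the median of -0.21 that all genes had under those offsets. Reads were counted without regard to strand, and 2.18% of the exonic bases of Zmat3 lie opposite 4930429B21Rik, so a small part of its count could belong to that gene.

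The start region of Ccng1 holds a match to the p53 site, which is why it is shown. The sequence is that of RefSeq in build GRCm38.p6, chr11:40755237-40755536, minus strand, running from 250 bases before the start site to 50 after it. A match was a 20-base p53 site, 2 adjoining half-sites, with at most 1 mismatch and with both core C and G bases in each half-site. The consensus is symmetric, so a search of 1 strand covers both, although a given match need not be. The capitals mark the match, which begins 195 bases before the start site.
Ccng1: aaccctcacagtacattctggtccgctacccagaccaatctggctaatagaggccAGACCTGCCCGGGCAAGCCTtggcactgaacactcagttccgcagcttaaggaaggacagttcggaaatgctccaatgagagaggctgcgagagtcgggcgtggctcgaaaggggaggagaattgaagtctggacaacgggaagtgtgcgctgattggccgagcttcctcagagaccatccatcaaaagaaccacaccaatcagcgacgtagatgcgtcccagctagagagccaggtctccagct
Among the windows of all genes 22 of 32841 (0.067%) held such a match, Ccng1 and 1 start site of Cdkn1a among them. A match is a description of letters only, and binding was not measured here.

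The CIP/KIP genes moved apart. Cdkn1a (chromosome 17, 29309953 to 29319696, plus strand, build mm39) encodes p21, the inhibitor through which p53 halts the cell cycle. It was at 939, 938 and 925 CPM in K68R and at 639.8, 631 and 628 CPM in WT. The 3 libraries of each genotype lay close together, and the log2 fold change was 0.56 with an SE of 0.0177 (edgeR, adjusted p = 2.76e-40). It held its value under both kinds of offsets, at 0.59 for length and GC content and 0.62 for length alone. The fold of 1.48 did not pass the 1.5-fold bound (edgeR, adjusted p = 1).

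RefSeq gives Cdkn1a 2 start sites. The window of the upstream one (GRCm38.p6, chr17:29090729-29091028, plus strand) holds the p53 match shown in capitals, beginning 51 bases before the start site. It is printed beside that of Ccng1 because both genes were higher in K68R.
Cdkn1a start 1: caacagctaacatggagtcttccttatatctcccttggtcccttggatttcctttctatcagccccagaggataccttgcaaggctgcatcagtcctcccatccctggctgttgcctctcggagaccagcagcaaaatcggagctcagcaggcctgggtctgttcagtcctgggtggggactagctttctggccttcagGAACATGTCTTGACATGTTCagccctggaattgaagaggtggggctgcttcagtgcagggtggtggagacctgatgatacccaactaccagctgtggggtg
The half-site alone, 10 bases with no mismatch, occurred in 8.36% of all windows, and the start windows of Trp53 and Mdm2 each held 1. Counts were summed over the gene, so the use of each start site was not measured.

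Cdkn1b (chromosome 6, 134897364 to 134902488, plus strand, build mm39) encodes p27, an inhibitor of CDK2 complexes that accumulates in resting cells. It was at 19.9, 20.7 and 21.5 CPM in K68R and at 28.9, 29.5 and 30.0 CPM in WT. All K68R values were below all WT values, with a log2 fold change of -0.51 and an SE of 0.0529 (edgeR, adjusted p = 1.03e-13). With the length and GC offsets the log2 fold change shrank to -0.10 and was not called (edgeR, adjusted p = 0.0747). Per exonic kilobase, Cdkn1a was 55.7, 53.6 and 50.9 times the level of Cdkn1b in K68R and 26.1, 25.3 and 24.7 times in WT. The mean ratios were 53.4 ± 2.44 in K68R and 25.4 ± 0.702 in WT (SD, n = 3), a 2.1-fold difference with no overlap (two-sided exact permutation test, p = 0.1, the smallest possible). On the log2 scale this difference was 1.07, and 0.70 with the offsets.

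The INK4 genes had the largest changes. Cdkn2a (chromosome 4, 89192710 to 89212856, minus strand, build mm39) makes both p16INK4a, which inhibits CDK4 and CDK6, and p19ARF, which binds MDM2 and so spares p53. Its row pools both transcripts. It was at 24.2, 24.3 and 25.2 CPM in K68R and at 5.75, 5.02 and 5.55 CPM in WT. The lowest K68R library was over 4 times the highest WT library, and the fold was 4.49, a log2 fold change of 2.17 with an SE of 0.0744 (edgeR, adjusted p = 3.62e-38). The raw counts were 624, 757 and 778 in K68R and 237, 157 and 186 in WT. Of all genes tested 8.8% had a higher log2 fold change, and 3.23% with the length and GC offsets, under which Cdkn2a was at 2.18.

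Cdkn2b (chromosome 4, 89224526 to 89229269, minus strand, build mm39) encodes p15, an INK4 protein known as a target of TGF-beta signalling, and lies 11669 bases from Cdkn2a. It was at 59.0, 55.4 and 55.4 CPM in K68R and at 23.3, 24.8 and 22.7 CPM in WT. Every K68R library was more than 2-fold above every WT library, with a log2 fold change of 1.26 and an SE of 0.0441 (edgeR, adjusted p = 1.05e-37). With the offsets it was 1.46. Both neighbours rose, and their ratio was higher in every K68R library than in any WT library. The ratio of Cdkn2a to Cdkn2b per exonic kilobase was 0.503, 0.537 and 0.558 in K68R and 0.303, 0.248 and 0.299 in WT. The mean ratios were 0.533 ± 0.0279 in K68R and 0.284 ± 0.0305 in WT (SD, n = 3), a 1.88-fold difference (two-sided exact permutation test, p = 0.1, the smallest possible). On the log2 scale it was 0.91, and 0.72 with the offsets.

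The start regions of the 2 neighbours are shown because they rose together. The upstream Cdkn2a start (GRCm38.p6, chr4:89294570-89294869, minus strand) is that of p19ARF, and the other (chr4:89282143-89282442, minus strand) is that of p16INK4a. The window of Cdkn2b is chr4:89310983-89311282, minus strand. Capitals mark GC boxes, the letters GGGCGG on either strand, a motif bound by SP1, and none overlaps a p53 half-site.
Cdkn2a start 1: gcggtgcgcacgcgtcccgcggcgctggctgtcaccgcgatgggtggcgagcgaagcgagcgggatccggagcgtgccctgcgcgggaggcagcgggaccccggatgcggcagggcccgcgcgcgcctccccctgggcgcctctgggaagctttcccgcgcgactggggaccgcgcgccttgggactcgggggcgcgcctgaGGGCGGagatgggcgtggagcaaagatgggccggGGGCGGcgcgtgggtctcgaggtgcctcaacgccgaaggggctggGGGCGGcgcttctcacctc
Cdkn2a start 2: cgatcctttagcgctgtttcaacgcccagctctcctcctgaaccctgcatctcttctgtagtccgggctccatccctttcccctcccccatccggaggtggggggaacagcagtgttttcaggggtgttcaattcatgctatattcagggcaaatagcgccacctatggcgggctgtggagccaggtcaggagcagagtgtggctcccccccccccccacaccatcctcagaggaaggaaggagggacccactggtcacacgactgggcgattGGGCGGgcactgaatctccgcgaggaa
Cdkn2b: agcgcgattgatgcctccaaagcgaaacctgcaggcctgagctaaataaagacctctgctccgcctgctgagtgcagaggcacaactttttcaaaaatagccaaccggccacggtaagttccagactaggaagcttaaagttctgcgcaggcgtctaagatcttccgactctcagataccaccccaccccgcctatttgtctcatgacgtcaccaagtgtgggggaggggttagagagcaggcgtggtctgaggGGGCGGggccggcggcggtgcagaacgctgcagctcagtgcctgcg
The p19ARF window held 3 GC boxes and the other 2 windows 1 each. Among all windows 35.7% held at least 1, so the motif is common. None of the 3 windows printed here held a p53 half-site, which says only that these letters are not within them.

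Cdkn2c (chromosome 4, 109518073 to 109523953, minus strand, build mm39) encodes p18, an INK4 protein that lies on the same chromosome but apart from the other 2. It went the other way, at 8.37, 9.33 and 7.42 CPM in K68R and at 18.97, 20.8 and 19.5 CPM in WT. The highest K68R library was below the lowest WT library, and the means differed 2.35-fold. The log2 fold change was -1.24 with an SE of 0.0747 (edgeR, adjusted p = 2.09e-24), and 4.77% of all genes tested had a lower one. With the offsets it was -1.73 with the GC content of the longest transcript and -1.21 with that averaged over transcripts. Called changes of at least 2-fold were found in 22.1% of all genes tested as higher and in 7.57% as lower, and among the 10 genes these were Cdkn2a, Cdkn2b and Cdkn2c.

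**Figure D2:**
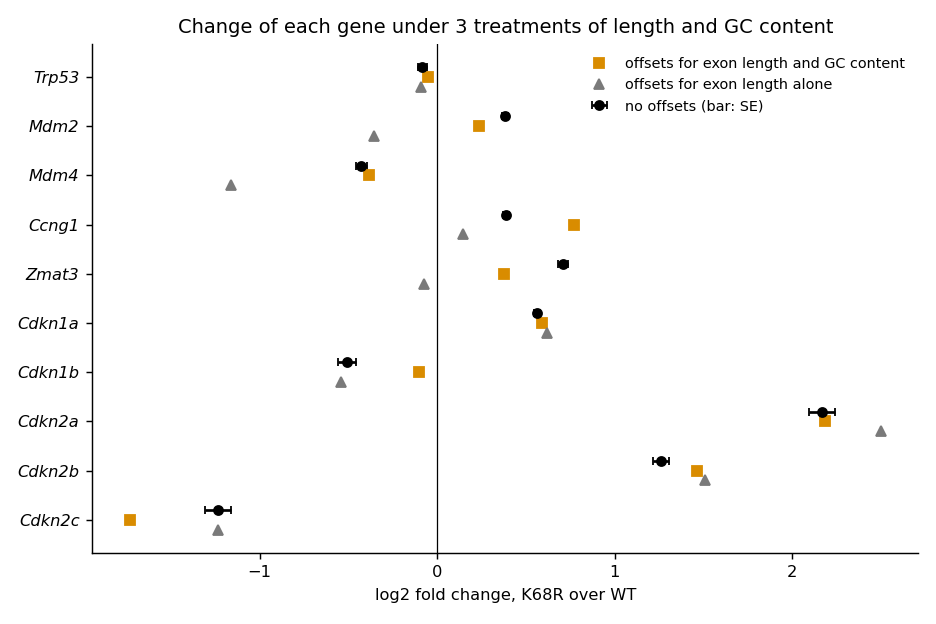
Log2 fold change of K68R over WT (horizontal axis) for each of the 10 genes with no offsets (black, bar is the SE), with length and GC offsets (orange) and with offsets for length alone (grey). The INK4 genes keep the outermost places, from 2.17 for Cdkn2a to -1.24 for Cdkn2c with no offsets, while Mdm2 and Zmat3 cross 0 with offsets for length alone, at -0.35 and -0.08.

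None of the 10 genes had values that overlapped between the genotypes, as was the case for 82.3% of all genes tested. Levels were also set in order per exonic kilobase, a scale on which genes of different length can be compared. The order was not recomputed with the offsets, so changes of place between the genotypes are given on the scale without them. Cdkn1a was the most abundant in both genotypes, at 459 ± 3.84 CPM per kilobase in K68R and 311 ± 3.01 in WT, followed by Ccng1 at 374 ± 7.75 in K68R and 285 ± 2.43 in WT. Mdm2 was above Trp53 in K68R, at 79.8 ± 0.976 against 71.2 ± 2.55 CPM per kilobase, and below it in WT, at 61.2 ± 0.896 against 75.4 ± 1.95. With the length and GC offsets the log2 fold changes were 0.23 for Mdm2 and -0.05 for Trp53. They were -0.35 and -0.09 with offsets for length alone, so this exchange of places may not hold with offsets. Cdkn2b followed in both genotypes, at 40.6 ± 1.48 in K68R and 16.9 ± 0.765 in WT. Cdkn2a was the sixth of the 10 in K68R, at 21.6 ± 0.508 CPM per kilobase, and the last in WT, at 4.79 ± 0.331. In K68R, Zmat3, Cdkn1b, Mdm4 and Cdkn2c came after it, at 15.8 ± 0.292, 8.6 ± 0.328, 7.94 ± 0.0453 and 3.72 ± 0.423 CPM per kilobase. In WT, Cdkn1b, Mdm4, Zmat3 and Cdkn2c stood between Cdkn2b and Cdkn2a, at 12.3 ± 0.223, 10.7 ± 0.165, 9.63 ± 0.457 and 8.77 ± 0.422. Zmat3 and Cdkn2c in WT were the only neighbours in either order whose 3 values overlapped.

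**Figure D3:**
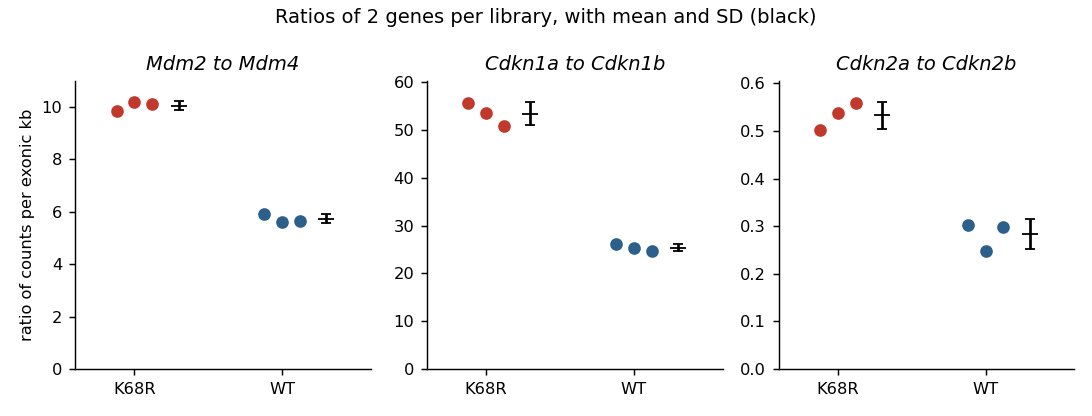
Ratio of 2 genes per exonic kilobase (vertical axes, each starting at 0) in the 3 K68R libraries (red) and the 3 WT libraries (blue), with the mean and SD in black. All 3 ratios are higher in every K68R library, on average 10.05 against 5.74 for Mdm2 to Mdm4, 53.4 against 25.4 for Cdkn1a to Cdkn1b and 0.533 against 0.284 for Cdkn2a to Cdkn2b.

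The 3 other CDK inhibitor genes were called too. Cdkn1c, which encodes the CIP/KIP protein p57, was 6.49-fold higher, at 200 ± 3.89 CPM in K68R against 30.6 ± 1.63 CPM in WT (edgeR, adjusted p = 4.17e-66). Cdkn2d, the INK4 protein p19, was 1.97-fold lower, at 13.2 ± 0.835 CPM in K68R against 25.9 ± 1.63 CPM in WT (edgeR, adjusted p = 5.1e-23). Within the INK4 family, 2 genes were thus higher and 2 lower. Cdkn3, a phosphatase that acts on CDKs, was 2.89-fold lower, at 5.47 ± 0.589 CPM in K68R against 15.8 ± 0.265 CPM in WT.

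Other known p53 targets were mostly higher before adjustment for length and GC content. Of 22 targets in arrest, repair and metabolism, 17 rose, 3 fell and 2 missed the threshold (median log2 fold change 0.29), and under the offsets 15 rose and 5 fell (median 0.41). Sesn2, a stress-induced inhibitor of mTORC1 signalling, was 3.85-fold higher, at 63.4 ± 0.621 CPM in K68R against 16.4 ± 1.13 CPM in WT, and its log2 fold change of 1.95 was 1.11 with the offsets. Of 12 targets in cell death, 9 rose and 3 fell (median 0.28), but under the offsets 5 rose and 6 fell (median -0.07). Pmaip1 and Perp, which had the smallest p of these 12, were 6.63-fold and 6.35-fold higher, and 8.76-fold and 8.16-fold higher with the offsets. Tnfrsf10b, a death receptor, was among the higher ones too, at 126 ± 2.11 CPM in K68R against 46.5 ± 0.271 CPM in WT. Pidd1 and Bbc3 were higher without offsets but lower with them. Pidd1 went from a log2 fold change of 1.79 to -0.17, and Bbc3, named after its value was seen, from 1.42 to -0.84. Bax, the pore-forming effector named here after its value was seen, was lower, with a log2 fold change of -0.56.

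Genes that act on p53 went both ways, and of 29 tested 12 rose, 16 fell and 1 missed the threshold. The paired acetyltransferases Ep300 and Crebbp were 9.59-fold and 16.5-fold higher, Crebbp at 45.6 ± 2.22 CPM in K68R against 2.76 ± 0.124 CPM in WT. With the offsets their log2 fold changes of 3.26 and 4.05 were 2.36 and 2.81. Npm1, nucleophosmin, which holds p19ARF in the nucleolus, was 2.01-fold lower, at 904 ± 6.99 CPM in K68R against 1819 ± 32.0 CPM in WT. Of 19 tested Polycomb and other regulators of the Cdkn2a and Cdkn2b locus, 9 rose, 8 fell and 2 missed the threshold. Under the length and GC offsets 6 rose, 8 fell and 5 missed it. Bmi1, a Polycomb protein that represses the locus, was 1.28-fold lower, at 50.2 ± 0.843 CPM in K68R against 64.2 ± 0.961 CPM in WT, and was not called with the offsets (edgeR, adjusted p = 0.763). Kdm6b, a demethylase that removes the Polycomb mark, was 26.3-fold higher, at 65.3 ± 2.16 CPM in K68R against 2.47 ± 0.256 CPM in WT, with a log2 fold change of 4.72 that the offsets reduced to 1.44. Zbtb7a and Tbx2, like Bmi1 known as repressors of the locus, were 6.91-fold and 16.3-fold higher. With the offsets their log2 fold changes were 0.39 and 1.86. The part of these regulators in the rise of Cdkn2a and Cdkn2b was not tested.

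Among the cyclins, CDKs and CDC25 phosphatases on which the inhibitors act, 5 of 18 were higher and 13 lower, with a median log2 fold change of -0.64. The partners of the INK4 proteins split, with Cdk4 1.65-fold lower, at 423 ± 1.84 CPM in K68R against 698 ± 8.01 CPM in WT, and Cdk6 1.66-fold higher, at 91.8 ± 4.04 CPM in K68R against 55.1 ± 2.43 CPM in WT. With the length and GC offsets the log2 fold changes of Cdk4 and Cdk6 were -0.39 and 0.35. With offsets for length alone both were lower, at -0.48 and -0.21. Ccnd1, cyclin D1, was 1.48-fold higher, at 189 ± 1.58 CPM in K68R against 128 ± 1.56 CPM in WT. Of 20 RB, E2F and DREAM genes 8 rose, 8 fell and 4 missed the threshold, and under the offsets 4 rose and 13 fell. Rb1 was 2.08-fold higher, at 33.7 ± 1.15 CPM in K68R against 16.2 ± 0.518 CPM in WT, and its relative Rbl1 was 2.66-fold lower, at 16.1 ± 0.907 CPM in K68R against 42.8 ± 1.27 CPM in WT. Of the 8 genes of p27 turnover and FOXO factors 3 were higher and 5 lower, and Skp2, which marks p27 for destruction, was 1.73-fold lower, at 32.4 ± 0.602 CPM in K68R against 56.0 ± 1.78 CPM in WT.

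In a list of 22 genes of S phase and mitosis 21 were lower, where 40.5% of all genes tested were lower. The median log2 fold change of the list was -1.30, and -1.17 with the offsets. The cyclins, CDKs and RB, E2F and DREAM genes above went both ways, so the list does not stand for all cell cycle genes. Of 19 tested secreted and nuclear markers of senescence 4 rose, 9 fell and 6 missed the threshold. Under the length and GC offsets 4 rose, 10 fell and 5 missed it. Ccl2 and Cxcl1, chemokines of the senescence-associated secretions, were 5.65-fold and 24.2-fold lower, Ccl2 at 53.7 ± 2.36 CPM in K68R against 304 ± 6.22 CPM in WT. Lmnb1, lamin B1, which is known to be lost in senescent cells, was 1.33-fold lower, at 77.3 ± 1.25 CPM in K68R against 103 ± 1.37 CPM in WT. It is counted among the 9 that fell, so the counts pool markers of unlike direction. Among the 4 that rose were Igfbp7 and Glb1, named after their values were seen. They were 1.5-fold and 1.36-fold higher, and 1.59-fold and 1.5-fold higher with the length and GC offsets. The rest of the 4, Igfbp5 and Hmga1, did not stay higher. With the offsets Igfbp5, at a log2 fold change of 0.05, was not called, and Hmga1 was 3.09-fold lower.

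**Figure D4:**
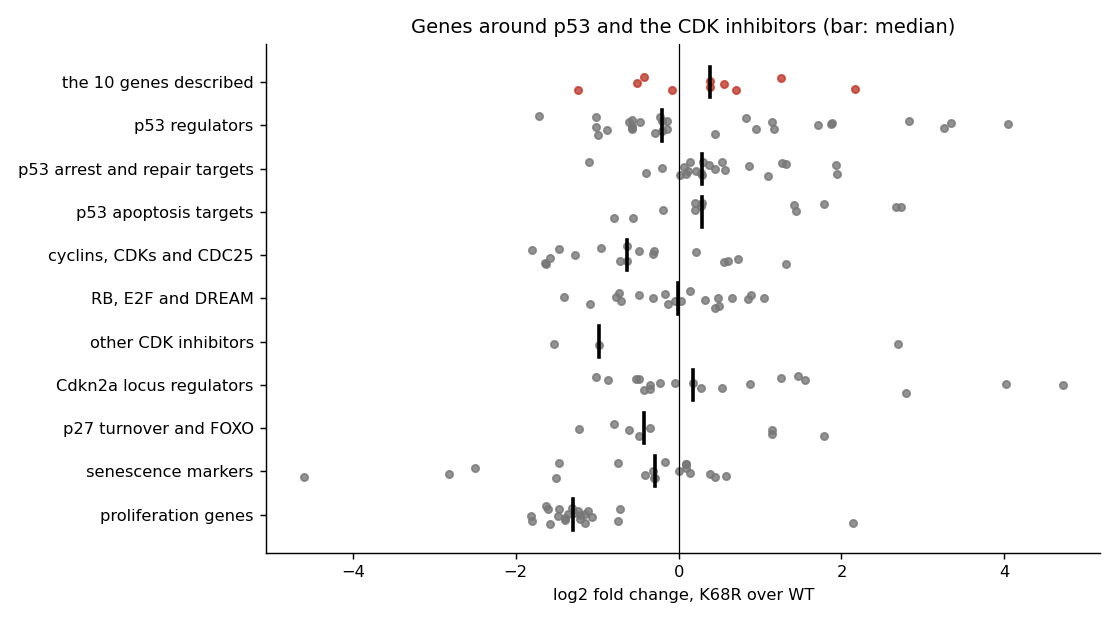
Log2 fold change of K68R over WT (horizontal axis) of each tested gene (points, spread vertically for legibility) in the 10 genes described (red) and in 10 lists of related genes (grey), with the median as a black bar. The median is 0.39 for the 10 genes, 0.29 for p53 arrest and repair targets, -0.64 for cyclins, CDKs and CDC25 and -1.30 for proliferation genes, and most lists span both directions.

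The genes with the profile most like that of Trp53, by Euclidean distance of mean-centred log2 CPM over the 6 libraries among 14234 candidates with an established symbol, were Pde12, Gpd1l and Fem1b, at distances of 0.0292 to 0.0456. Those nearest to Cdkn1a were H19, Mlec and Rtn4, at 0.0325 to 0.0405. Those nearest to Cdkn2a were Bag3, Tnrc6b and Cux1, at 0.0457 to 0.0884. With the length and GC offsets Mlec was lower, at -0.19, where Cdkn1a was at 0.59, and Cux1 was at 1.02, where Cdkn2a was at 2.18, so the likeness held on the scale without offsets.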

How the data were processed

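Poly(A) RNA of 6 libraries, 3 K68R and 3 WT, was sequenced after preparation with a stranded kit, per the labels' protocols, which give an RNA integrity number above 4. Per the submitters' processing notes, reads were handled with HISAT2 2.2.1 and featureCounts 2.0.6 on mm39. The authors deposited unnormalized counts, which per the file headers are read pairs over the exons of NCBI RefSeq genes, taken with no strand option and no multi-mapped reads. The deposited table's exon length was used for levels per kilobase. Samples were grouped by title.

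Genotypes were compared in edgeR 4.0.16 under R 4.3.3 (filterByExpr, TMM, robust quasi-likelihood F test, K68R over WT), with Benjamini-Hochberg adjustment over the 16730 genes tested and a threshold of 0.05. Floors cover counting error only. The common biological coefficient of variation was 2.19%. Offsets came from a smooth fitted for each library with mgcv 1.9.3 on the log2 of exon length and on GC content. GC content was that of the longest GENCODE M21 transcript (GRCm38), joined by symbol, and 93.2% of genes tested had a value. Several definitions of GC content were compared, and this one was kept because it came nearest to offset values already known for these data. The average over transcripts is given as an alternative chosen after seeing the data. Ratios of 2 genes were tested by exact permutation over 20 assignments. The alternatives were DESeq2 1.42.0 size factors and test, limma-voom (limma 3.58.1), no filter or a filter of 1 CPM in 3 libraries, a replicate block, a 1.5-fold bound, offsets for length alone, and the omission of each library in turn.

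The fit was tested on simulated data. A first criterion, on the share of all changed genes recovered, was not met, and it was replaced by one on well covered genes changed 2-fold, which was met. The members and gene lists were chosen with earlier results of these data known, and the lists support nothing independently. Named genes were the 10 members, Sod2, the other CDK inhibitors, up to 4 called genes with the smallest p per list, a short set of fixed genes, the first 2 of each marker list and the nearest 3 genes to Trp53, Cdkn1a and Cdkn2a. Promoter windows were RefSeq's, found for 9 of 10 members. Motifs were chosen after the sequences were seen, and TATAAA was also searched, found in 13.6% of windows.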

Additional observations from a re-analysis of the deposited data

How the results depend on the processing

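Under 16 alternatives, Cdkn2a, Cdkn2b and Cdkn2c kept their direction and their call. Against the 1.5-fold bound, 6855 genes were called, 4365 higher and 2490 lower, and 4 of the 10 genes, 3 higher and 1 lower. Sod2, at a log2 fold change of -0.57, then had an adjusted p of 0.692 (edgeR), and over its alternatives the adjusted p ran from 3.07e-59 to 0.692. With offsets for length alone Mdm2 reversed to -0.35 and Zmat3 to -0.0751; the cause was not tested. With the length and GC offsets 2 of the 10 genes were called lower, since Trp53 and Cdkn1b were not called, and with GC content averaged over transcripts Trp53 was called (edgeR, adjusted p = 0.0113) and Cdkn1b was not (0.093). The Sod2 value was -0.23 with the first GC content and -0.51 with the second, so its size depends on that choice. The offsets also moved the counts of arrest and repair targets to 5 lower, of cell death targets to 5 higher and 6 lower, and of RB, E2F and DREAM genes to 4 higher and 13 lower. With offsets for length alone 5307 genes were higher and 8154 lower, a more unequal split than 6833 and 6780.

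Leaving out each library gave 13403 to 13637 genes called, 6760 to 6849 higher and 6643 to 6802 lower, and 9 to 10 of the 10 genes, 6 higher throughout and 3 to 4 lower. Sod2 ran from -0.60 to -0.54, and the log2 ratio differences from 0.79 to 0.83 for Mdm2 to Mdm4, 1.04 to 1.11 for Cdkn1a to Cdkn1b and 0.82 to 0.96 for Cdkn2a to Cdkn2b. The labels do not tie same-numbered libraries of the genotypes to one litter or day. Deviations of same-numbered libraries correlated at -0.00947, 0.0135 and 0.013, which shows no pairing but cannot exclude it. A replicate block gave 13567 genes and 10 of the 10 genes called. At depths of 26200088 to 40691447 counts, the lowest counts among the 10 genes were those of Cdkn2a in WT, 157 to 237, and of Cdkn2c in K68R, 216 to 291, and these genes had the largest SEs, 0.0744 and 0.0747.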

Other observations

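Mki67, which encodes the Ki-67 protein of dividing cells, was the exception among the 22 listed S phase and mitosis genes. It was at 145, 147 and 152 CPM in K68R, against 32.9, 35.4 and 32.6 CPM in WT, a log2 fold change of 2.14 (edgeR, adjusted p = 8.95e-59), and of 1.74 with the length and GC offsets. The other 21 were lower, such as Rrm1, a subunit of ribonucleotide reductase, at 194 ± 4.54 CPM in K68R against 475 ± 3.36 CPM in WT. Of the 8 genes of p27 turnover and FOXO factors, the 3 FOXO factors were higher and the other 5 lower without offsets, but this split did not hold with the length and GC offsets. Foxo4 then had a log2 fold change of -0.22 (edgeR, adjusted p = 0.00225), against 1.15 without offsets, and Skp1 one of 0.08 (edgeR, adjusted p = 0.00164), against -0.35, both named after their values were seen. Foxo3 was 3.43-fold higher, at 88.7 ± 1.55 CPM in K68R against 25.7 ± 1.90 CPM in WT, and its log2 fold change of 1.78 was 0.59 with the offsets.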
